A study of Mus musculus with 10 samples.

Results

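Hlcs, the gene of holocarboxylase synthetase, was examined in the hippocampus of Dp5/Dp1 mice together with biotinidase (Btd) and the 7 genes that encode the biotin-dependent carboxylases or their subunits, Pcx, Pcca, Pccb, Mccc1, Mccc2, Acaca and Acacb. These 9 genes, of 19938 tested, were chosen by function, and each was read from the probe set with the highest mean among those annotated to that gene alone. Dp5/Dp1 mice are a model of Down syndrome in which 2 duplicated segments of mouse chromosome 16 (Mmu16), Dp5Yah and Dp1Rhr, were brought together by crossing, 1 on each homologue. Dp5Yah covers Cyyr1 to Clic6 and Dp1Rhr covers Cbr1 to Fam3b. Hlcs lies inside Dp1Rhr and is therefore present in 3 copies, whereas the other 8 genes lie on other chromosomes and are present in 2 copies. RNA came from the whole hippocampus (right and left) of 5 male Dp5/Dp1 mice and 5 male littermate controls, all 16 weeks old, with 1 array per mouse. Their background strain is C57BL/6N by the labels and C57BL/6J by the methods. The titles of the controls carry a re-analysis mark without a reason. The same littermates may also have served the single duplication lines (not analysed here). The title of each mutant array puts Dp5Yah first and adds the Dp5/Dp1 model in parentheses. Levels are RMA log2 values (mean ± SD, n = 5 in each group). A difference is the Dp5/Dp1 mean less the control mean, on the log2 scale, with its standard error (SE). A gene was called when limma's Benjamini-Hochberg adjusted p was under 0.05, and "rose" is used for called genes only.

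Biotin works in the cell as a prosthetic group of carboxylases. Holocarboxylase synthetase joins it to a lysine of each newly made apocarboxylase, and biotinidase frees it again when the carboxylases are broken down. The mitochondrial carboxylases feed oxaloacetate into the citric acid cycle and take part in the breakdown of odd-chain fatty acids and branched-chain amino acids, while the acetyl-CoA carboxylases make malonyl-CoA for fatty acid synthesis and for the control of fatty acid entry into mitochondria. Loss of holocarboxylase synthetase or biotinidase in humans causes multiple carboxylase deficiency, in which all of these reactions fail together. In brain, pyruvate carboxylase is known as a largely astrocytic enzyme.

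Hlcs spans chromosome 16, 94129306 to 94315239 (GRCm38), on the minus strand. The RefSeq promoter table of GRCm38.p6 listed 2 starts for it. Both lie inside this span, so neither is at its 5′ end, 94315239. The 250 bases before each start are printed because they travel with the gene in the extra copy. They are written 5′ to 3′ on the minus strand, and capitals mark the GC box, GGGCGG on either strand.
Hlcs upstream window chr16:94313564-94313813: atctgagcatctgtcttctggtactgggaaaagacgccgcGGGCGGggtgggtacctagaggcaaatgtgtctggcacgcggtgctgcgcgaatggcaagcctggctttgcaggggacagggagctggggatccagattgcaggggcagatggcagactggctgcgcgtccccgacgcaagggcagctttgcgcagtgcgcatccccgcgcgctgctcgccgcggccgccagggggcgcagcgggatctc
Hlcs upstream window chr16:94290292-94290541: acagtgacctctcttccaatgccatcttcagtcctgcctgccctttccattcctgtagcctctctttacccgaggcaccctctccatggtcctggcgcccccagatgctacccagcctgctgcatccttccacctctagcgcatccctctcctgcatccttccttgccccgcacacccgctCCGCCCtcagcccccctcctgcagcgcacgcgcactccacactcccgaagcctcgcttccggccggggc
Each window held 1 GC box. The first had 23 CG dinucleotides and 67.2% G or C, and the second had 13 CG dinucleotides and 64.8% G or C. Over all 32851 windows of the same length, 32.7% held a GC box and the median was 6 CG dinucleotides, with an upper quartile of 16. Of the 13 windows of the 9 genes, 7 held a GC box, and 5 of the 9 genes had a GC box in at least 1 window. A match of these letters is a description of the sequence only.

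The first question was whether the extra copy of Hlcs was visible in its RNA. Hlcs rose in Dp5/Dp1 hippocampus. In controls 1 to 5 it stood at 7.49, 7.47, 7.43, 7.36 and 7.41. In Dp5/Dp1 replicates 1 to 5 it stood at 7.76, 7.76, 7.84, 7.81 and 7.94. Every Dp5/Dp1 array lay above every control, with 0.26 between the lowest Dp5/Dp1 array and the highest control, and replicate 5 was the highest of all. The mean went from 7.43 ± 0.05 to 7.82 ± 0.07, a log2 difference of 0.39 ± 0.04 (limma adjusted p = 0.00108). This is 1.31-fold, with a 95% interval of 1.23 to 1.39 that lies below 1.5-fold, the ratio of 3 copies to 2. The largest difference among the 29 listed genes of the Dp1Rhr interval, read below, was 1.41-fold. The estimates of all 29 thus lay below 1.5-fold. An exact two-sided permutation test of the 10 Hlcs array values gave p = 0.00794, the smallest that 5 against 5 arrays can give. Among all genes 0.201% were called higher by limma, and 1.08% had groups that did not overlap. In whole tissue, a change in the number of cells of a type and a change in RNA per cell cannot be told apart.

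Hlcs was the only called gene of the 9. At the unadjusted p under 0.05, as by limma's adjusted p and by FCROS, the rank method named in the methods, 1 of the 9 passed, and it was Hlcs each time. The shares of all genes were 0.206% by adjusted p, 6.06% by unadjusted p and 5.06% by FCROS. The 0.206% stands for 41 genes, and 37 of them lay inside the duplicated intervals. Without Hlcs, 0 of 8 passed any of these tests and 0 of 8 had groups that did not overlap. Of those 8, 6 had a higher mean and 2 a lower mean in Dp5/Dp1, and their median difference was 0.01, against 0.0019 over all genes. The differences of the 8 ran from -0.15 to 0.04. An adjusted p above the threshold does not show that the groups are alike, so the 95% interval of each difference is given below. None of the 9 was among the dimmest 40% of genes.

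**Figure D1:**
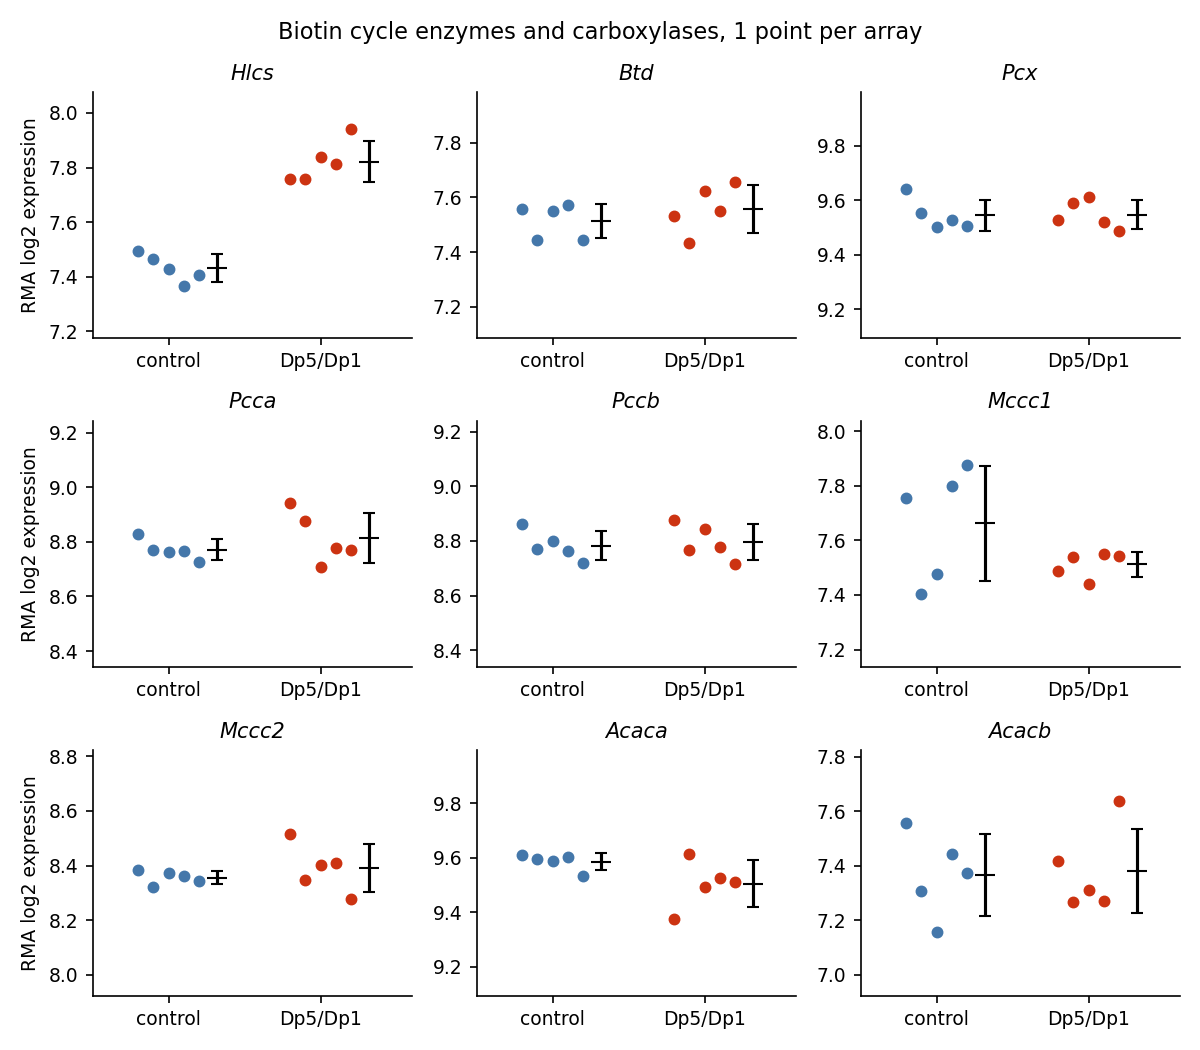
RMA log2 expression (y axis) of the 9 genes in controls (blue) and Dp5/Dp1 (red), 1 point per array in the order of the replicate numbers, with mean and SD in black beside each group; all panels span the same log2 range. The groups separate for Hlcs (control 7.36 to 7.49, Dp5/Dp1 7.76 to 7.94) and overlap for the other 8 genes.

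Btd (chromosome 14, 31641057 to 31668197), which releases biotin for reuse, averaged 7.51 ± 0.06 in controls and 7.56 ± 0.09 in Dp5/Dp1. Its control arrays ran from 7.45 to 7.57 and its Dp5/Dp1 arrays from 7.43 to 7.66, so the Dp5/Dp1 range took in the control range. The difference was 0.04 ± 0.05 (limma adjusted p = 0.901) and its 95% interval, in percent of the control level on the linear scale, ran from -3.83% to 10.6%. The intervals of the other genes below are on the same percent scale.

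Pcx (chromosome 19, 4510472 to 4621752), the pyruvate carboxylase that supplies oxaloacetate, had nearly equal group means. Controls 1 to 5 stood at 9.64, 9.55, 9.50, 9.53 and 9.51. Dp5/Dp1 replicates 1 to 5 stood at 9.53, 9.59, 9.61, 9.52 and 9.49. The groups overlapped along their whole length, with control replicate 1 the highest array. The means were 9.55 ± 0.06 and 9.55 ± 0.05, the difference was 0.0021 ± 0.037 (limma adjusted p = 0.995), and the 95% interval, from -5.27% to 5.87%, was the narrowest of the 9. The mean over 10 astrocyte markers, read beside Pcx, lay between 10.88 and 11.03 in controls and between 10.83 and 10.97 in Dp5/Dp1, a difference of -0.04. Of the 10 markers, 7 had a lower mean in Dp5/Dp1 and 3 a higher mean. Limma called 0 of them, and 2 were lower at an unadjusted p under 0.05 (20%, beside 6.06% of all genes). FCROS passed 1, which was lower (10%, beside 5.06%). The groups did not overlap for 1 marker (beside 1.08% of all genes). Gfap, the astrocyte intermediate filament, went from 10.57 ± 0.12 to 10.49 ± 0.08 (limma adjusted p = 0.875), and Aqp4, the water channel of astrocyte endfeet, from 10.36 ± 0.10 to 10.28 ± 0.08 (limma adjusted p = 0.852).

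Pcca (chromosome 14, 122484365 to 122889944) and Pccb (chromosome 9, 100982032 to 101034940) encode the subunits of propionyl-CoA carboxylase, and Pcca carries the biotin. In controls 1 to 5 Pcca stood at 8.83, 8.77, 8.76, 8.77 and 8.73. In Dp5/Dp1 it stood at 8.94, 8.87, 8.71, 8.78 and 8.77. Replicates 1 and 2 of Dp5/Dp1 lay above all controls and replicate 3 below them. The difference was 0.04 ± 0.04 (limma adjusted p = 0.901; 95% interval from -3.64% to 10.004%). Pccb averaged 8.78 ± 0.05 in controls, with a range of 8.72 to 8.86, and 8.80 ± 0.06 in Dp5/Dp1, with a range of 8.72 to 8.88. Its difference was 0.01 ± 0.04 (limma adjusted p = 0.965; 95% interval from -4.81% to 7.00%).

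Mccc1 (chromosome 3, 35956292 to 36000694) and Mccc2 (chromosome 13, 99948532 to 100015639) encode the subunits of methylcrotonyl-CoA carboxylase, an enzyme of leucine breakdown, and Mccc1 carries the biotin. Mccc1 had the lowest difference of the 9 and the widest control spread. Controls 1 to 5 stood at 7.76, 7.40, 7.48, 7.80 and 7.88. Dp5/Dp1 replicates 1 to 5 stood at 7.49, 7.54, 7.44, 7.55 and 7.54. Controls 1, 4 and 5 lay above all Dp5/Dp1 arrays, while controls 2 and 3 lay among or below them. The means were 7.66 ± 0.21 and 7.51 ± 0.05, and the difference of -0.15 ± 0.08 was not called (limma unadjusted p = 0.0971, adjusted p = 0.832; exact permutation p = 0.159), with a 95% interval from -20.4% to 2.21%. Mccc2 ran from 8.32 to 8.38 in controls and from 8.28 to 8.52 in Dp5/Dp1, with replicate 1 highest. Its difference was 0.03 ± 0.04 (limma adjusted p = 0.914; 95% interval from -3.77% to 8.97%).

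Controls 1, 4 and 5, high in Mccc1, were also the controls with the highest choroid plexus markers. The mean of 9 choroid plexus markers was 8.88, 6.91, 7.03, 8.74 and 8.21 in controls 1 to 5. It was 6.94, 7.28, 8.21, 6.98 and 8.43 in Dp5/Dp1 replicates 1 to 5. The group difference in this mean was -0.39, with a lower mean in Dp5/Dp1 for 9 of 9 markers. Limma called 0 of them and FCROS passed 1 (11.1%, beside 5.06% of all genes). Mccc1 stood at 7.44 and 7.54 in Dp5/Dp1 replicates 3 and 5, the highest of their group in these markers. Of the 9 markers, 3 were among the dimmest 40% of genes. Ttr, the transthyretin of the choroid plexus, varied by an SD of 2.05 among controls and Folr1, its folate receptor, by 0.93. With the choroid plexus and medial habenula marker means as covariates, the Mccc1 difference was -0.09 (limma adjusted p = 0.836) and that of Hlcs was 0.40 (limma adjusted p = 0.0108). Beyond these values, the part of choroid plexus RNA in the Mccc1 difference was not tested.

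**Figure D2:**
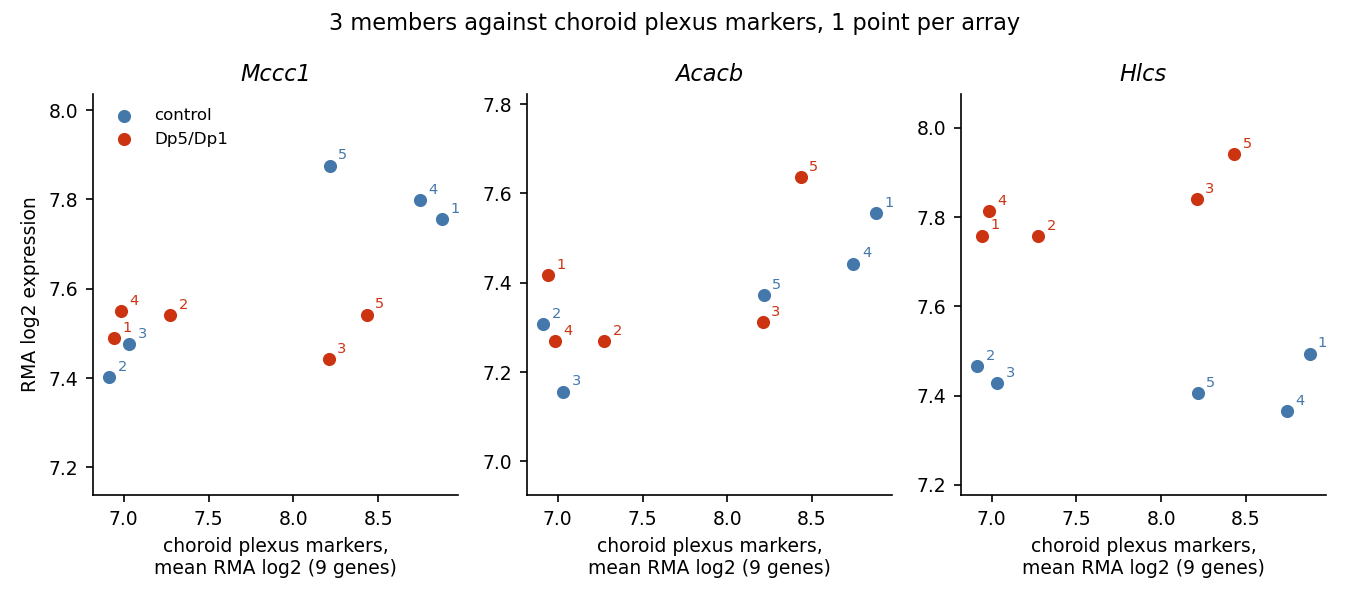
RMA log2 expression (y axis) of Mccc1, Acacb and Hlcs against the mean of 9 choroid plexus markers (x axis, RMA log2) in each array, with replicate numbers beside the points, controls in blue and Dp5/Dp1 in red. Controls 1, 4 and 5 sit at the upper right for Mccc1 (7.76, 7.80 and 7.88), and Hlcs separates the groups at both low and high marker levels.

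Acaca (chromosome 11, 84129635 to 84401651) and Acacb (chromosome 5, 114146321 to 114250761) encode the acetyl-CoA carboxylases of the cytosol and of the outer mitochondrial membrane. In controls 1 to 5 Acaca stood at 9.61, 9.59, 9.59, 9.60 and 9.53. In Dp5/Dp1 it stood at 9.37, 9.62, 9.49, 9.53 and 9.51. Replicates 1, 3, 4 and 5 of Dp5/Dp1 were below the lowest control, and replicate 2 was the highest of the 10 arrays. The mean went from 9.59 ± 0.03 to 9.50 ± 0.09, and the difference of -0.08 ± 0.04 was not called (limma unadjusted p = 0.0720, adjusted p = 0.831; exact permutation p = 0.0794), with a 95% interval from -11.2% to 0.591%. A second probe set of Acaca went from 8.87 ± 0.09 to 8.82 ± 0.08, a difference of -0.05 ± 0.05 (limma adjusted p = 0.898).

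Acacb varied more between mice than between groups. Controls 1 to 5 stood at 7.56, 7.31, 7.16, 7.44 and 7.37. Dp5/Dp1 replicates 1 to 5 stood at 7.42, 7.27, 7.31, 7.27 and 7.64. The highest control, replicate 1, and the highest Dp5/Dp1 array, replicate 5, were also the highest of their groups in choroid plexus markers, and their part in the result was not tested beyond the covariate value. The difference was 0.01 ± 0.08 (limma adjusted p = 0.986), with a 95% interval from -10.99% to 14.5%, and it was 0.08 with the marker means as covariates (limma adjusted p = 0.842).

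**Figure D3:**
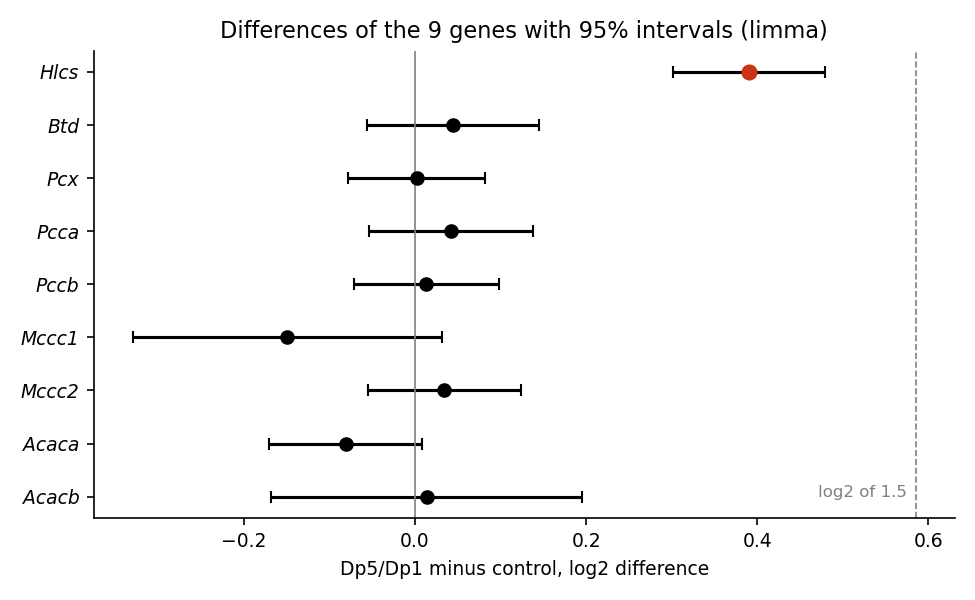
Log2 differences, Dp5/Dp1 minus control (x axis), of the 9 genes with 95% intervals from limma (bars); the dashed line marks log2 of 1.5. The interval of Hlcs (0.30 to 0.48) lies above 0 and below the dashed line, and those of the other 8 genes include 0.

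Whether the subunits of one enzyme varied together across mice was not resolved with 10 arrays. Over the 10 arrays, Pcca and Pccb had Pearson's r = 0.465 (permutation p = 0.176, adjusted p = 0.352 over the 2 pairs) and Spearman's rho = 0.333 (permutation p = 0.348, adjusted p = 0.697). Without the 2 arrays farthest from the median of Pcca, Dp5/Dp1 replicates 1 and 2, r was 0.264 (permutation p = 0.537), and without Dp5/Dp1 replicate 1 alone it was 0.0992. Mccc1 and Mccc2 had r = -0.144 (permutation p = 0.691, adjusted p = 0.691) and rho = -0.0788 (permutation p = 0.838, adjusted p = 0.838). Without controls 4 and 5, the farthest in Mccc1, r was 0.010 (permutation p = 0.979).

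Within the Dp1Rhr interval Hlcs was one of the clearer changes. By position 31 genes of the interval were measured, and 29 of them are on the list used here. Of the 29 genes, 12 were called, all of them higher, which is 11 of 28 without Hlcs, beside 0.201% of all genes. Hlcs ranked 6 of 29 by difference and 2 of 29 by p, and the median difference of the other 28 was 0.19. On its Cbr1 side, Morc3, a chromatin-binding ATPase, rose from 8.54 ± 0.10 to 8.96 ± 0.10 (0.42 ± 0.06, limma adjusted p = 0.0100). The 3 measured genes between Morc3 and Hlcs were not called. Chaf1b, a subunit of chromatin assembly factor, differed by -0.0027 ± 0.048 (limma adjusted p = 0.995), Cldn14, a tight junction claudin, by 0.01 ± 0.04 (limma adjusted p = 0.966) and Sim2, a transcription factor, by 0.0094 ± 0.037 (limma adjusted p = 0.976). Chaf1b and Sim2 were among the dimmest 40% of genes. On the Fam3b side, Ripply3, a developmental transcriptional repressor that was also among the dimmest, differed by 0.08 ± 0.04 (limma adjusted p = 0.841), and Pigp, a subunit of the first enzyme of GPI anchor synthesis, by 0.24 ± 0.06 (limma adjusted p = 0.362; it passed FCROS). Ttc3, a ubiquitin ligase whose position overlaps that of Pigp at one end, rose by 0.27 ± 0.04 (limma adjusted p = 0.00721). Vps26c, a subunit of the retriever sorting complex, rose by 0.43 ± 0.06 (limma adjusted p = 0.0144).

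**Figure D4:**
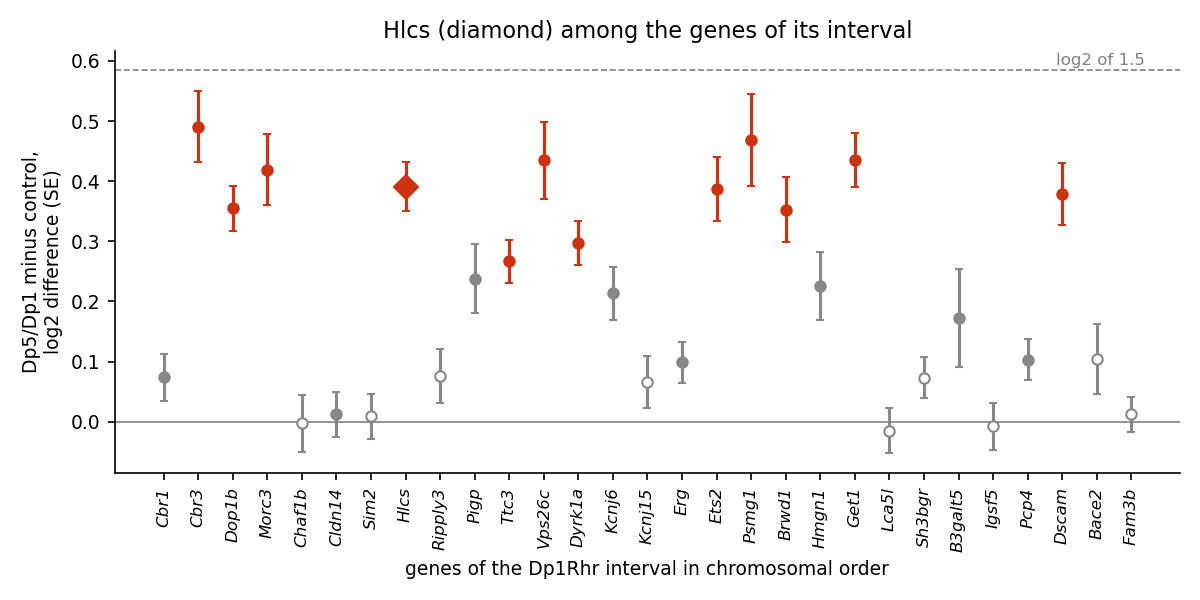
Log2 differences, Dp5/Dp1 minus control (y axis, bars are SE), of the 29 listed Dp1Rhr genes in chromosomal order (x axis); red, called by limma; open circles, among the dimmest 40% of genes; diamond, Hlcs; dashed line, log2 of 1.5. Hlcs (0.39) stands between Sim2 (0.0094) and Ripply3 (0.08), with 12 red points in all.

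The genes with a profile most like that of Hlcs were read from the root mean square distance between profiles centred on each gene's mean over the 10 arrays. Sod1, a superoxide dismutase, was nearest at 0.065, followed by Ifnar1, an interferon receptor subunit (0.0655), Ltn1, a ubiquitin ligase of stalled ribosomes (0.0670), Dyrk1a, a protein kinase (0.0677), and Cfap298, a cilia assembly protein (0.0697). All 20 of the nearest 20 genes lay inside the duplicated intervals. The centred profile of Hlcs itself had a root mean square of 0.203, most of it the step between groups, so that this measure mainly finds genes with a step of like size.

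The enzymes and transporters around the carboxylases were read from 7 lists with 107 measured genes of 112. By limma 0 were called, beside 0.206% of all genes, a share made up mostly of genes inside the duplicated intervals. At an unadjusted p under 0.05 there were 12 (11.2% of the 107, beside 6.06% of all genes), 9 higher and 3 lower, and FCROS passed 11 (10.3%, beside 5.06%), 8 higher and 3 lower. The higher mean was in Dp5/Dp1 for 68 genes and in controls for 39, with a median difference of 0.02. The lowest adjusted p of the 107 was 0.577. FCROS passed 0 of 2 genes of biotin transport and 5 of 15 of propionate and cobalamin (33.3%). It passed 1 of 20 of branched-chain amino acids (5%) and 1 of 24 of fatty acid synthesis (4.17%). It passed 0 of 6 of malonyl-CoA and carnitine, 2 of 19 carboxylase regulators (10.5%) and 2 of 21 pyruvate genes (9.52%). The shares at an unadjusted p under 0.05 were 0%, 13.3%, 5%, 12.5%, 0%, 15.8% and 14.3% in that order (6.06% of all genes).

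Of the genes of biotin transport, Slc5a6, the sodium-dependent multivitamin transporter, differed by 0.0012 ± 0.030 (limma adjusted p = 0.996), and Slc16a1, a monocarboxylate transporter, by 0.12 ± 0.08 (limma adjusted p = 0.845). The propionate and cobalamin list, which follows the product of propionyl-CoA carboxylase to succinyl-CoA, had 9 of 15 genes with a higher mean, a median difference of 0.01, and 1 gene in each direction with an unadjusted p under 0.05. FCROS passed 5 of the 15 (33.3%, beside 5.06% of all genes), 3 higher and 2 lower. The genes with an unadjusted p under 0.05 were Suclg1, a succinyl-CoA ligase subunit (0.11 ± 0.05), and Mmaa, which protects methylmalonyl-CoA mutase (-0.17 ± 0.07), each with a limma adjusted p of 0.806. In the branched-chain amino acid list, 15 of 20 genes had a higher mean, with a median of 0.02 and 1 gene higher at an unadjusted p under 0.05. That gene, Hibch, a hydrolase of valine breakdown, was the only pathway gene of the 107 whose groups did not overlap, beside 1.08% of all genes. Its controls stood at 7.17, 7.07, 7.19, 7.18 and 7.14. Its Dp5/Dp1 arrays stood at 7.49, 7.27, 7.20, 7.28 and 7.26. Replicate 1 of Dp5/Dp1 was well above the rest and replicate 3 barely above the highest control, and the difference of 0.15 ± 0.05 was not called (limma adjusted p = 0.753). Ppm1k, the phosphatase that activates the branched-chain ketoacid dehydrogenase, differed by 0.07 ± 0.04 (limma adjusted p = 0.836).

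Downstream of the acetyl-CoA carboxylases, the fatty acid synthesis list had 15 of 24 genes with a higher mean, 3 higher at an unadjusted p under 0.05, and a median of 0.02. Elovl2, an elongase of polyunsaturated fatty acids, differed by 0.15 ± 0.06 and Cbr4, a subunit of a mitochondrial ketoacyl reductase, by 0.12 ± 0.05, each with a limma adjusted p of 0.806. Among the 6 measured genes of malonyl-CoA and carnitine, 5 had a higher mean and 0 passed limma at either threshold or FCROS. The lowest p values there belonged to Slc25a20, the carnitine-acylcarnitine carrier (0.05 ± 0.04, limma adjusted p = 0.875), and Mlycd, the malonyl-CoA decarboxylase (0.02 ± 0.04, limma adjusted p = 0.960).

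The list of regulators of acetyl-CoA carboxylase had 9 of 19 genes with a higher mean, a median of -0.0017, and an unadjusted p under 0.05 for 2 higher genes and 1 lower gene. Insig1, which holds back SREBP processing, had the largest difference of the 107 pathway genes. Its controls stood at 10.01, 10.16, 10.18, 9.89 and 9.78. Its Dp5/Dp1 arrays stood at 10.62, 10.27, 10.32, 10.23 and 10.06. Replicates 1, 2, 3 and 4 of Dp5/Dp1 lay above all controls and replicate 5 among them, and the difference of 0.30 ± 0.10 was not called (limma adjusted p = 0.746). Mid1ip1, which promotes acetyl-CoA carboxylase polymerisation, differed by 0.14 ± 0.06 (limma adjusted p = 0.806).

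In the pyruvate list 13 of 21 genes had a higher mean, with a median of 0.02 and an unadjusted p under 0.05 for 2 higher genes and 1 lower gene. Pck2, the mitochondrial phosphoenolpyruvate carboxykinase, which uses the oxaloacetate made by pyruvate carboxylase, had the lowest adjusted p of the pathway genes. Its controls stood at 8.11, 8.14, 8.17, 8.15 and 8.14. Its Dp5/Dp1 arrays stood at 8.39, 8.26, 8.30, 8.33 and 8.16. Replicates 1 to 4 of Dp5/Dp1 lay above all controls and replicate 5 within them, and the difference of 0.14 ± 0.04 was not called (limma adjusted p = 0.577). Pdp1, a pyruvate dehydrogenase phosphatase, differed by -0.18 ± 0.07 (limma adjusted p = 0.806).

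**Figure D5:**
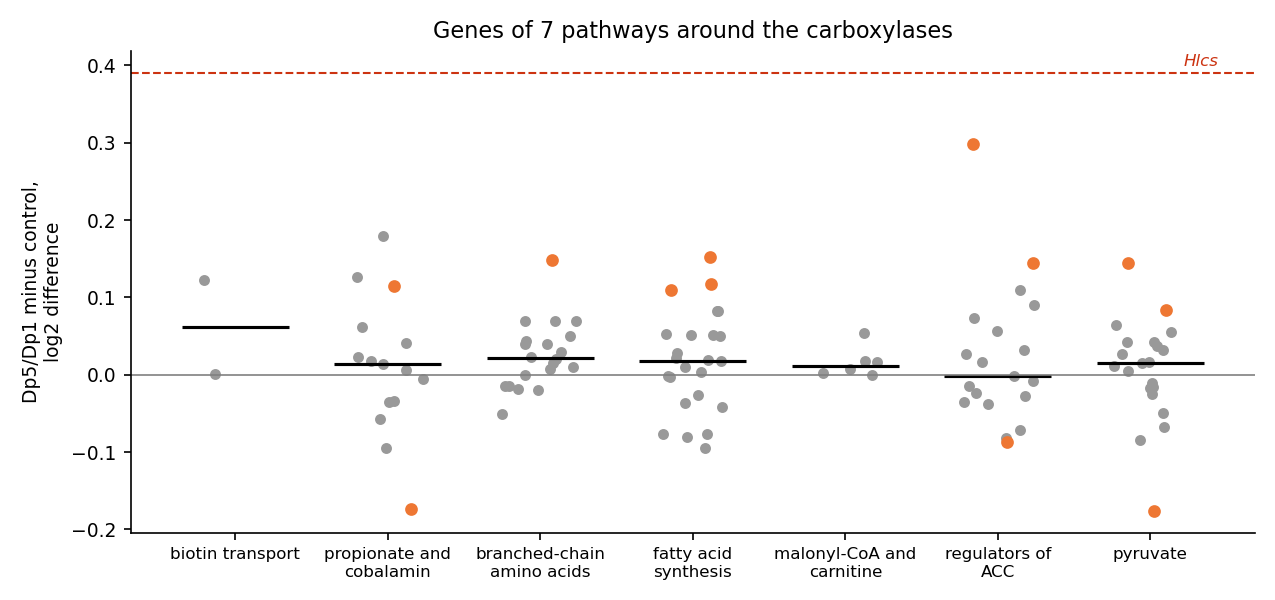
Log2 differences, Dp5/Dp1 minus control (y axis), of the 107 measured genes of 7 pathway lists (x axis), 1 point per gene with horizontal jitter; orange, unadjusted limma p under 0.05; black lines, list medians; dashed line, Hlcs (0.39). All points lie below Hlcs, the highest being Insig1 (0.30), and the list medians lie between -0.0017 and 0.06.

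Markers of the tissue were checked on every array. The mean of 10 hippocampal neuron markers lay between 10.63 and 10.67 in controls and between 10.60 and 10.71 in Dp5/Dp1. Prox1 and C1ql2, which mark dentate granule cells, averaged 10.28 and 9.88 in controls. Medial habenula markers (9 genes, 5 of them among the dimmest) had a higher mean in Dp5/Dp1 for 9 of 9, a difference of 0.41 in their mean. Limma called 0 of them and FCROS passed 4, all higher (44.4%, beside 5.06% of all genes). They lay between 6.76 and 7.24 in controls and between 6.81 and 8.13 in Dp5/Dp1. Replicates 2 and 5 of Dp5/Dp1 were the highest. Without both of those arrays Hlcs differed by 0.37 (limma adjusted p = 0.00756). Thalamus markers lay between 8.29 and 8.76 in controls and between 7.999 and 8.42 in Dp5/Dp1. The difference in their mean was -0.16, with a lower mean for 5 of 6 markers, and limma called 0. Endothelial markers lay between 8.54 and 8.73 in controls and between 8.64 and 8.76 in Dp5/Dp1, a difference of 0.09 in their mean. Of the 9 endothelial markers, 6 had a higher mean in Dp5/Dp1 and 3 a lower mean. Limma called 0 of them, and 4 were higher at an unadjusted p under 0.05 (44.4%, beside 6.06% of all genes). FCROS passed 5, all higher (55.6%, beside 5.06%). Group means differed by 0.03 for oligodendrocyte markers and by -0.0021 for microglial markers, and the groups overlapped in both. Of 9 oligodendrocyte markers, 5 had a higher and 4 a lower mean in Dp5/Dp1, with differences from -0.14 to 0.32. FCROS passed 2 of them, 1 in each direction (22.2%, beside 5.06% of all genes), and 0 of 9 microglial markers. Limma called 0 in both lists. Apart from the values without replicates 2 and 5 and those with choroid plexus and habenula covariates, their part in the results was not tested.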

How the data were processed

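Total RNA of whole hippocampus was hybridised to Affymetrix Mouse Gene 1.0 ST arrays, 5 per group. The authors normalised the arrays by RMA and deposited log2 expression values per probe set. RMA is known to compress fold changes, above all those of dim probe sets. RMA, limma and mm10 stand in the submitters' processing notes. Versions of RMA and limma, and any scan batch, are not given in the sources used here. The platform annotation gave a single gene symbol to 21789 of the 35556 probe sets, several symbols to 1621 and none to 12146. A gene was represented by its brightest probe set on average, a choice that arose for 999 of the 19938 genes. Coordinates came from RefSeq (GRCm38, the assembly of mm10). Array medians lay between 6.73 and 6.80 and correlations between arrays, across genes, between 0.996 and 0.999. No pair of arrays was identical. The number of arrays limits the precision.

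Groups came from the condition label. Genes were tested two-sided with limma 3.58.1 (R 4.3.3; lmFit, then eBayes) without covariates, and p-values were adjusted over all 19938 genes. Permutation tests used scipy 1.17.1, with 100000 resamples for correlations. FCROS was rewritten from its description (25 array pairs, 0.25 trimmed from each end, f-values within 0.025 of either end) and may differ from the published package. The scripts were tested on simulated data.

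The 9 genes, the lists and the tests were chosen with earlier results of these data known. Named besides the 9 genes were the 4 measured Dp1Rhr genes on either side of Hlcs, the called genes of each pathway list or else the 2 with the lowest p, the 5 nearest profiles and 2 markers of a cell type where its list was read closely. Alternatives were a filter on dim genes, renewed quantile normalization, centring, other uses of probe sets, other variance models, leaving out arrays, array weights, a block for the replicate number, marker covariates, FCROS and an adjusted p under 0.1.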

Additional observations from a re-analysis of the deposited data

How the results depend on the processing

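Hlcs was called in every alternative with a limma test (log2 difference 0.36 to 0.41, adjusted p from 0.000675 to 0.0359) and by FCROS and the exact permutation test, and it was the only called gene of the 9 throughout. When 1 array was left out, the difference ran from 0.020 to 0.076 for Btd, from 0.010 to 0.068 for Pcca, from -0.21 to -0.095 for Mccc1, from 0.0025 to 0.062 for Mccc2 and from -0.11 to -0.049 for Acaca. Pcx was -0.0036 after centring on genes outside the intervals and ran from -0.014 to 0.026 when 1 array was left out. Acacb was -0.015 with array weights, -0.034 without Dp5/Dp1 replicates 2 and 5, and ran from -0.050 to 0.061 when 1 array was left out. Pccb ran from -0.0072 to 0.033 when 1 array was left out. The cause was not tested. The correlation of Pcca with Pccb ran from 0.0992 to 0.722 when 1 array was left out, and that of Mccc1 with Mccc2 from -0.297 to 0.0404. With values centred on the group means, these were 0.452 and -0.0085.

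Of all genes, 41 were called, 37 of them inside the duplicated intervals. The count was 21 without Dp5/Dp1 replicates 2 and 5, 23 with marker covariates, 1008 by FCROS, and 29 to 39 when 1 array was left out. FCROS passed 11 pathway genes, against 0 called by limma in all other alternatives. Same-numbered arrays correlated in their deviations from the group means by -0.353 to 0.292, and 1 of 5 numbers correlated best with itself. These values did not show a pairing by replicate number, and a pairing by litter or handling was not tested. With the replicate number as a block, Hlcs was 0.39 (adjusted p = 0.0359) and 26 genes were called. The number of arrays limits what could be detected, and the 95% intervals of the 8 other genes include 0. A group of 5 was examined for an outlying array in 18 cases, and 0 passed Dixon's critical value of 0.71.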
